A study of Mus musculus with 121 samples.

Results

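The vascular lining of liver and gonadal fat was described through 9 endothelial and sinusoid marker genes: Kdr, Flt4, Tek, Cdh5, Pecam1, Stab1, Stab2, Clec4g and Lyve1. They were taken by name, as the rows of both gene count tables whose Ensembl identifier maps to these symbols, and are 9 of the 25759 genes in each table. All 9 had enough reads to be tested in liver and in gonadal adipose tissue.

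The mice were C57BL/6 and of 3 labelled genotypes, WT (wild type), HET (1 copy lost) and KO (both copies lost), of PEP, the gene Pepd, which encodes prolidase, a peptidase that frees proline from dipeptides. From 8 weeks of age and for 18 weeks the mice ate chow with 10% of calories from lipid, a high-fat diet labelled HFD 45%, or the diets labelled Control and Alios. The 120 libraries used are single-end mRNA-seq, each from a mouse with its own number: liver from WT, HET and KO mice numbered 5, 8 and 5 on chow, 8, 11 and 9 on HFD, 5, 4 and 1 on the Control diet and 6, 5 and 8 on Alios. Gonadal adipose tissue came from 4, 8 and 5 mice on chow and 8, 11 and 9 on HFD, and 44 mice gave both tissues. The labels name neither the targeted allele nor the cells that carry it, and the lone KO liver on the Control diet entered no comparison.

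Liver libraries held a median of 3191160 counts and gonadal libraries between 4236655 and 6699887. The shallowest liver library, Alios KO replicate 8, held 42692 counts, and the next shallowest 1027087. Pepd fell with genotype as labelled, in liver from 43.0 ± 3.83 CPM (read counts scaled to a common library total) in WT livers on chow (SD, n = 5) to 21.6 ± 2.07 in HET (n = 8) and 1.65 ± 1.13 in KO livers (n = 5). Gonadal KO libraries kept more of it, at 17.8 ± 11.3 CPM on chow (6.71 to 33.6) and 25.2 ± 6.70 on HFD, beside 83.8 ± 17.8 and 103 ± 9.30 in WT. One HFD mouse labelled HET (liver replicate 8, gonadal replicate 3) held 1.22 CPM of Pepd in liver, a KO level, and is called by its label here. Alb, the hepatocyte albumin gene, was at 20904 CPM or more in every liver, and Adipoq, the adipocyte hormone gene, at 484 CPM or more in every gonadal library. The lowest Alb was in a KO liver on chow, a group at 52313 ± 32081 CPM beside 78967 ± 13999 in WT livers on chow. Other tissues were also present: 8 gonadal libraries held over 1000 CPM of summed hepatocyte markers, 6 held over 1000 CPM of epididymis markers, and 6 livers held over 200 CPM of skeletal muscle markers. Their part in the results below was not tested except where values without those libraries are given.

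Endothelial cells line every vessel, and their identity rests on receptors for vascular growth factors and on the junctions that hold neighbouring cells together. In the liver the sinusoidal endothelium is fenestrated, lacks an organised basement membrane and clears waste macromolecules from blood through scavenger receptors and lectins. In white fat the capillaries are continuous and feed adipocytes with lipid, and resident macrophages lie along them.

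Kdr (VEGF receptor 2, the main signalling receptor for VEGF-A), Flt4 (VEGF receptor 3, the receptor for VEGF-C and VEGF-D, high in lymphatic and fenestrated endothelium) and Tek (Tie2, the angiopoietin receptor) form the growth factor receptors of the set. In GRCm38 Kdr lies on chr5:75932827-75978458 (minus strand), Flt4 on chr11:49609263-49652739 (plus) and Tek on chr4:94739289-94874976 (plus). The junction genes are Cdh5 (VE-cadherin, the adhesion molecule of endothelial adherens junctions) on chr8:104101625-104144511 (plus) and Pecam1 (CD31, an adhesion molecule shared with platelets and leukocytes) on chr11:106654217-106750628 (minus). The scavenger receptors Stab1, also made by macrophages, and Stab2, which takes up hyaluronan, lie on chr14:31139013-31168641 and chr10:86841198-87008025 (both minus). Clec4g (a C-type lectin of liver sinusoids) lies on chr8:3707064-3720651 and Lyve1 (a hyaluronan receptor of lymphatic and sinusoidal endothelium and of some tissue macrophages) on chr7:110850607-110863239 (both minus). Genes on the opposite strand overlap Cdh5, Stab1, Stab2 and Clec4g. The library kit marks strand, but the counting's strand option is not given in the sources used here, so reads of an antisense partner cannot be told apart from theirs.

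Promoter sequences were matched in RefSeq (GRCm38.p6) for 6 of the 9 genes. Shown are the 250 bases before the start of Kdr and Tek, because both receptors were lower in KO than in HET livers on chow, and of Stab2 and Clec4g, because these were the genes highest in liver against gonadal fat. Capitals mark AGGAAG, a form of the site read by ETS factors, the family that sets endothelial identity. They also mark GGGCGG, the GC box read by Sp factors. Other forms of the ETS site were not marked, so a window without AGGAAG may still hold them. TATAAA, the TATA box, was searched as well and is left in lower case. All 3 were searched on both strands.
Kdr, chr5:75978456-75978705, minus strand: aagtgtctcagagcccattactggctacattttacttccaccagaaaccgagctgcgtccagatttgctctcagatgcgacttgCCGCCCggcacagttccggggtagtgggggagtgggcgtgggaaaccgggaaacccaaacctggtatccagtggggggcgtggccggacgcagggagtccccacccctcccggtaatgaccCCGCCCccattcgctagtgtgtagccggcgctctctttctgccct
Tek, chr4:94739039-94739288, plus strand: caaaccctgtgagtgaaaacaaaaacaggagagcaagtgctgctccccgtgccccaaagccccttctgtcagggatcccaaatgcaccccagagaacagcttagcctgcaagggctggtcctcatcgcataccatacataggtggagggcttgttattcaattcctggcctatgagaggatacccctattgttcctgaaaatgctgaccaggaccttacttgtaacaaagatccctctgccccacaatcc
Stab2, chr10:87007943-87008192, minus strand: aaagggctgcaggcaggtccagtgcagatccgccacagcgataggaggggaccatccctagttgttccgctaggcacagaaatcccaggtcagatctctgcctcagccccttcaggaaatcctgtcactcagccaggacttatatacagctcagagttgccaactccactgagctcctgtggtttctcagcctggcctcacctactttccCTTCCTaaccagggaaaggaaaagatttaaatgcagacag
Clec4g, chr8:3720652-3720901, minus strand: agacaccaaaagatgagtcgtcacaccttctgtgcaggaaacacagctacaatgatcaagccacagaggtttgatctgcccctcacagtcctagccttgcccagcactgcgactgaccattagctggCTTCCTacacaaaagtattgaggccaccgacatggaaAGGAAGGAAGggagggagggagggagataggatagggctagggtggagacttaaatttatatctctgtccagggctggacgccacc
The Kdr window held 2 GC boxes and no AGGAAG, at 61.6% G and C, and the Tek window held neither, at 51.2%. The Stab2 window held 1 AGGAAG, and the Clec4g window held 3, of which 2 overlap, and 1 TATAAA. Of all 32851 mouse promoter windows of this length in the table, 29.5% held AGGAAG, 32.7% held GGGCGG and 12.4% held TATAAA, so each of these letters is common. The Kdr and Tek windows shared neither of the 2 motifs marked.

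The 2 tissues had different orders of these genes. Levels were compared between genes as CPM per kilobase of exon (RPKM), means ± SD over WT mice on chow. In liver (n = 5) Clec4g led at 29.4 ± 3.78 RPKM, Stab2 followed at 8.32 ± 1.66, and the other members lay between 2.07 (Lyve1) and 5.23 (Kdr), in an order whose neighbours did not differ by more than their spreads. In gonadal fat (n = 4) the junction genes led, Cdh5 at 103 ± 35.1 RPKM and Pecam1 at 57.2 ± 21.3, and the sinusoidal pair came last, Stab2 at 0.607 and Clec4g at 0.267. Between them stood Stab1 at 25.2 RPKM, Kdr at 18.6, Tek at 15.8, Lyve1 at 9.61 and Flt4 at 4.17. Neighbours were further apart than their summed SDs for Pecam1 and Stab1, for Tek and Lyve1, for Lyve1 and Flt4, and for Flt4 and Stab2. Clec4g was the top gene in all 12 liver groups, and Cdh5 in all 6 gonadal groups. With lengths of the longest annotated transcript in place of all exons, the order of all 9 held in only 2 of the 18 groups, and Pecam1 passed Cdh5 in gonadal fat of KO mice on chow and HET mice on HFD.

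**Figure D1:**
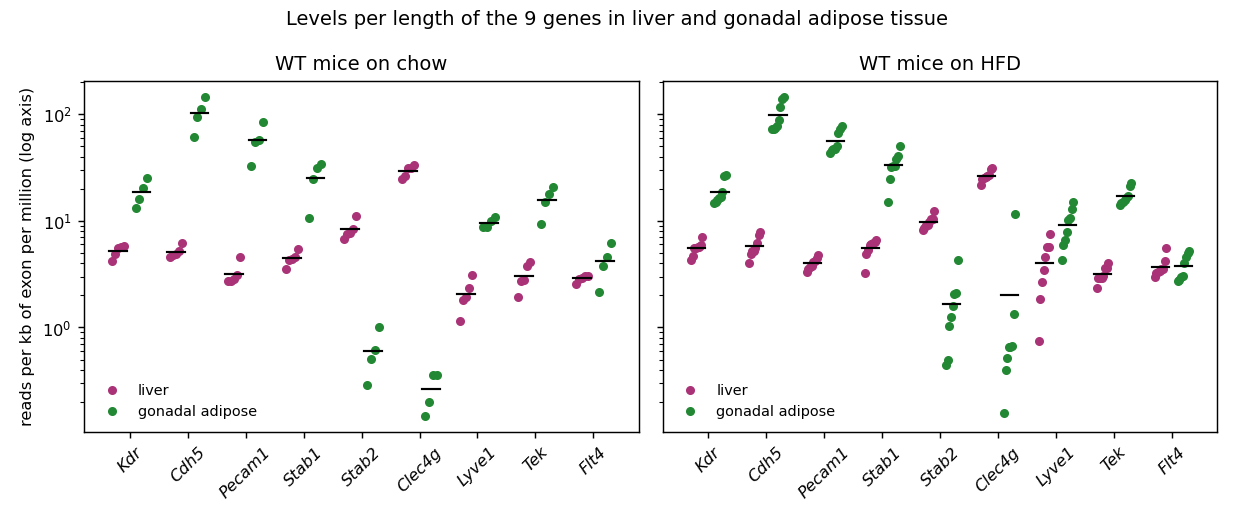
Levels of the 9 genes in RPKM (log axis) in WT mice on chow (left) and HFD (right), 1 point per library, with the mean as a line. Clec4g and Stab2 have the highest mean levels in liver and the lowest in gonadal fat, and Cdh5 and Pecam1 have the highest in gonadal fat.

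Tissues were then compared within mice on the CPM scale, in 1 fit of both tissues with each mouse as a block. Libraries were scaled across both tissues there, so its CPM differ in both tissues from the values within a tissue given elsewhere. In WT mice on chow, 8 of 9 members differed between tissues (73.3% of all genes did), 2 higher in liver (30% of all genes) and 6 lower (43.3%). Clec4g was at 95.2 ± 16.8 CPM in liver and 0.484 ± 0.195 in gonadal fat (n = 4 pairs), a log2 difference of 7.52 ± 0.64 (SE, edgeR adjusted p = 1.33e-13). Stab2 was 25.1-fold higher in liver, at 97.2 ± 24.4 against 3.93 ± 1.98 CPM (log2 difference 4.65 ± 0.38, adjusted p = 2.85e-14). Liver values exceeded gonadal values in 4 of 4 mice for both genes. The 2 tissues did not overlap for 8 of 9 members, which held for 60.8% of all genes.

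The junction genes were lower in liver, Cdh5 by 10.5-fold and Pecam1 by 9.13-fold. Cdh5 had 29.2 ± 4.86 CPM in liver and 320 ± 106 in gonadal fat (log2 difference -3.39 ± 0.25, edgeR adjusted p = 2.8e-15), and Pecam1 27.8 ± 7.82 against 263 ± 95.3 (-3.19 ± 0.18, adjusted p = 7.33e-19). Stab1 (-1.61), Tek (-1.33), Lyve1 (-1.24, adjusted p = 0.0175) and Kdr (-0.86) were also lower in liver, each in 4 of 4 mice. Flt4 did not pass the test on chow (0.39 ± 0.26, adjusted p = 0.179, higher in liver in 3 of 4 mice). Without gonadal WT replicate 2 the Lyve1 call was lost (adjusted p = 0.0578). In bulk RNA, fewer cells of a type and less RNA per cell cannot be told apart.

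On HFD, 8 of 9 members differed again (79.4% of all genes), now 3 higher in liver (33.4%) and 5 lower (46%). Flt4 was higher in liver in 8 of 8 WT mice, at 41.3 ± 10.2 against 22.9 ± 6.10 CPM (log2 difference 0.89 ± 0.18, edgeR adjusted p = 3.57e-05). Lyve1 was at 15.9 ± 9.11 CPM in liver and 19.9 ± 8.05 in gonadal fat and did not pass (-0.25 ± 0.32, adjusted p = 0.478). Clec4g (5.43), Stab2 (3.65), Cdh5 (-3.18), Pecam1 (-2.92), Stab1 (-1.65), Tek (-1.53) and Kdr (-0.86) kept the direction they had on chow. The gonadal mean of Clec4g on HFD rested on 1 library, WT replicate 6. On the scale within gonadal fat it was at 28.6 CPM, and the other 7 WT libraries at or under 3.29 CPM. Summed hepatocyte markers of replicate 6 were at 52235 CPM on that scale. Without that mouse the log2 differences were 6.22 for Clec4g (edgeR adjusted p = 2.74e-20) and 3.84 for Stab2.

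The size of every tissue difference depends on how libraries are scaled. With plain library totals in place of TMM scaling, all 9 differences were lower by 0.92 to 0.93 on chow and by 0.79 to 0.82 on HFD. Flt4 then had -0.54 on chow (edgeR adjusted p = 0.0556), against 0.39 with TMM, and 0.07 on HFD (adjusted p = 0.704), so its direction on chow and its call on HFD rest on the scaling. Lyve1 on HFD passed the test with plain totals (-1.07, adjusted p = 0.00249). Clec4g (6.60 and 4.64) and Stab2 (3.73 and 2.84) stayed higher in liver on both diets.

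Of 25 further endothelial genes tested by edgeR, 23 were lower in liver of WT mice on chow and none was higher, with a median log2 difference of -2.56 beside -0.34 over all genes. Flt1, VEGF receptor 1, stood at 16.2 ± 3.39 CPM in liver and 103 ± 27.5 in gonadal fat. Of 19 further sinusoid genes, 12 were higher in liver and 3 lower (median 1.55), among them Clec1b (4.54), Oit3 (5.11) and Dnase1l3 (4.28). Of 15 genes of capillary, venous and arterial endothelium, 13 were lower in liver and 2 higher. Car4 had no read in these livers and stood at 155 ± 197 CPM in gonadal fat, and Rgcc was at 0.101 ± 0.201 CPM in liver and 224 ± 72.9 in gonadal fat.

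In KO livers on chow, the VEGF receptor Kdr was lower and VE-cadherin higher than in WT. These were 2 of 9 members called, beside 3.4% of all genes (0.931% lower and 2.47% higher). Kdr stood at 23.3, 26.5, 30.5, 31.6 and 34.1 CPM in the 5 KO livers and at 37.6, 44.4, 49.8, 51.8 and 52.5 in the 5 WT livers. The groups did not overlap, which held for 2.19% of all genes. The KO mean was 29.2 ± 4.30 CPM and the WT mean 47.2 ± 6.26, 1.60-fold lower (log2 fold change -0.68 ± 0.13 SE, edgeR adjusted p = 0.00224). The call was lost in 1 of 20 alternative settings, when the spread was estimated from these 2 groups alone (adjusted p = 0.19).

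Tek, the angiopoietin receptor, stood at 5.47, 7.08, 7.72, 12.4 and 12.5 CPM in KO livers and at 9.14, 12.9, 13.2, 17.7 and 19.5 in WT. Its log2 fold change equalled that of Kdr (-0.68 ± 0.21), with 3 of 5 KO livers below every WT liver, but its adjusted p of 0.0593 by edgeR missed the threshold. DESeq2, which called 4.83% of all genes, called it (adjusted p = 0.0465), as did edgeR over all liver groups (0.046). Without KO replicate 4 (0.0123) or WT replicate 4 (0.0223) it passed too. Flt4, the third receptor, was at 25.2 ± 3.54 against 23.8 ± 1.70 CPM (0.08 ± 0.16, adjusted p = 0.834).

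Cdh5 stood at 24.4, 24.6, 32.6, 34.2 and 48.1 CPM in KO livers and at 19.2, 20.02, 20.6, 22.1 and 26.0 in WT. It was 1.49-fold higher (log2 fold change 0.58 ± 0.17, edgeR adjusted p = 0.0475), with 3 of 5 KO livers above every WT liver. The call was lost in 14 of 20 alternative settings, with adjusted p up to 0.287. Leaving out any one of KO replicates 2, 3 and 5 and WT replicates 1, 2, 4 and 5 ended it, and without KO replicate 2 the log2 fold change was 0.39. Pecam1, the other junction gene, was at 17.6 ± 3.72 against 19.9 ± 4.95 CPM (adjusted p = 0.48). The scavenger and lectin genes Stab1 (0.23), Stab2 (-0.01), Clec4g (-0.06) and Lyve1 (-0.21) did not pass, with adjusted p from 0.449 to 0.981.

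Macrophage markers moved with this comparison. Of 19 tested, 14 were higher in KO than in WT livers on chow and none lower, and 18 were higher than in HET. Their summed level was 683, 2947, 1977, 851 and 2311 CPM in KO replicates 1 to 5, 495 to 952 in WT and 285 to 1028 in HET. The macrophage markers Clec4f, Adgre1, Vsig4 and Cd163 were above 0 in all of these livers. The 3 KO livers with the highest sums, replicates 2, 3 and 5, were the 3 whose Cdh5 exceeded every WT liver. Kdr was below every WT liver in all 5 KO livers, including replicates 1 and 4, whose macrophage sums lay within the WT range. The summed hepatocyte markers were 76092 to 123391 CPM in KO and 105124 to 138877 in WT livers. The part of these cells in the results was not tested.

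Against HET livers on chow, Kdr and Tek were lower in KO (2 of 9 members, beside 13.5% of all genes, 5.61% lower). HET livers held from 35.9 to 53.6 CPM of Kdr, with a median of 50.7, and all 5 KO livers were below the lowest of them, a lack of overlap found for 1.73% of all genes (log2 fold change -0.69 ± 0.12, edgeR adjusted p = 0.000173). Tek ranged from 8.56 to 18.7 CPM in HET, with a median of 15.1, and 3 of 5 KO livers were lower than all of these (-0.67 ± 0.19, adjusted p = 0.0174). The Tek call was lost without KO replicate 2 (adjusted p = 0.079) or 3 (0.0866), and from these 2 groups alone (0.103). Cdh5 was at 25.4 ± 5.28 CPM in HET and did not pass (0.34 ± 0.15, adjusted p = 0.118). The comparisons with WT and with HET share the KO livers.

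Of 24 other endothelial and 18 other sinusoid genes tested, none passed in KO against WT livers on chow (3.4% of all genes did). Against HET livers 2 of the 24 fell and none rose, beside 5.61% of all genes lower. Ptprb, the endothelial phosphatase VE-PTP that acts on Tek and VE-cadherin, was at 50.4 ± 1.44 CPM in KO and 76.1 ± 10.7 in HET (log2 fold change -0.59, edgeR adjusted p = 0.000646). Flt1, another VEGF receptor, was at 9.04 ± 2.34 against 14.1 ± 3.87 CPM (-0.60, adjusted p = 0.025). Of 18 other sinusoid genes, Clec1b rose (0.72, adjusted p = 0.0397) and Oit3 fell (-0.30, adjusted p = 0.0497), beside 13.5% of all genes called. None of the 6 VEGF and angiopoietin ligands and co-receptors tested passed against HET or against WT.

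**Figure D2:**
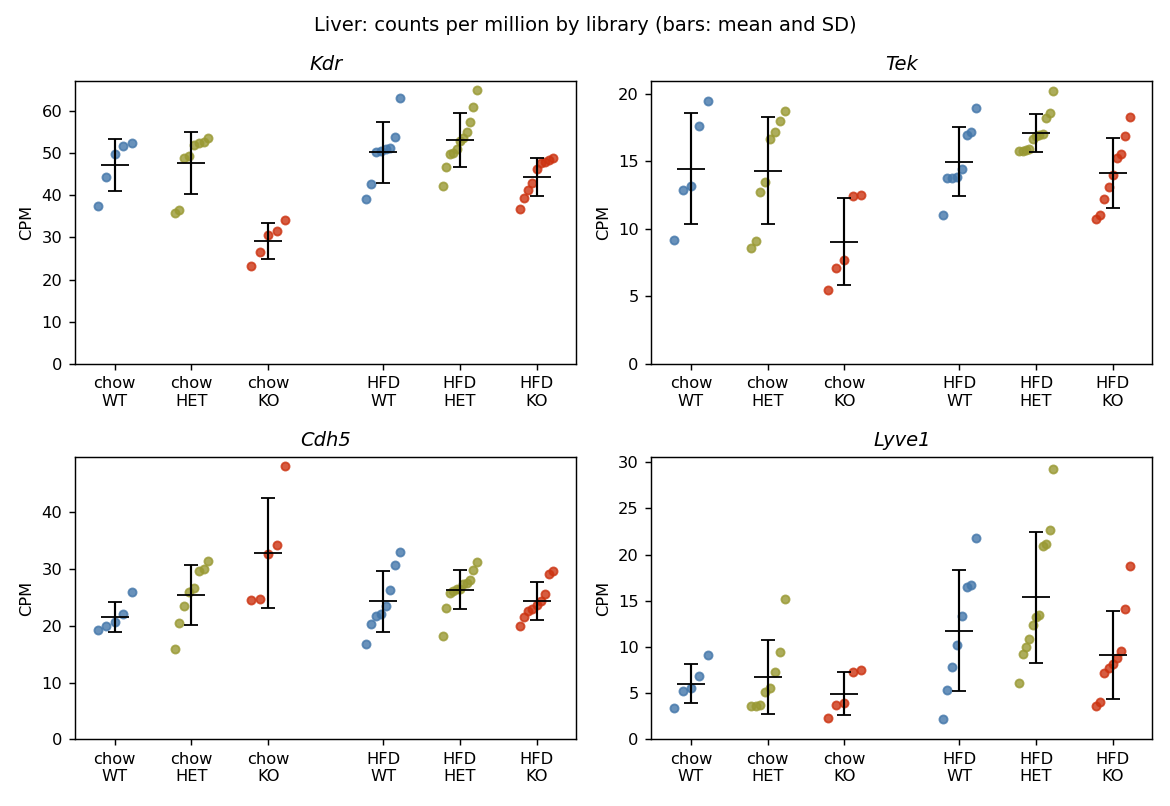
CPM of Kdr, Tek, Cdh5 and Lyve1 in each liver library on chow and HFD, by genotype, with the mean and SD. The 5 chow KO livers lie below all chow WT and HET livers for Kdr, between 23.3 and 34.1 CPM.

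The genotype difference was not called on the other diets. On HFD, 0 of 9 members passed in KO against WT (1.72% of all genes did) and 0 against HET (2.39%). DESeq2 called 0 in both. An unadjusted p under 0.05 was found for 1 member against WT (15.8% of all genes) and 5 against HET (14.9%). Kdr on HFD stood at 44.4 ± 4.43 CPM in KO (n = 9), 50.2 ± 7.22 in WT (n = 8) and 53.2 ± 6.40 in HET (n = 11), with log2 fold changes of -0.17 against WT (adjusted p = 0.379) and -0.25 against HET (adjusted p = 0.112). The difference between the KO effects on HFD and on chow was 0.51 ± 0.16 for Kdr, with an adjusted p of 0.0952, so the effects were not shown to differ. No member passed that test (0.145% of all genes did), 4 had an unadjusted p under 0.05 (18.1%), and DESeq2 called 0. Without chow KO replicate 4 (adjusted p = 0.0408) or chow WT replicate 4 (0.035) the Kdr difference passed.

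Flt4 had the smallest adjusted p of the members in KO against HET livers on HFD. It was at 25.9 ± 5.41 CPM in KO and 32.2 ± 4.53 in HET livers, 6 of 9 KO below all HET (log2 fold change -0.34 ± 0.11, edgeR adjusted p = 0.077). Lyve1 was at 9.09 ± 4.77 CPM in KO and 15.4 ± 7.07 in HET (-0.82 ± 0.30, adjusted p = 0.133). On the Alios diet 0 members passed in KO against WT (0.224% of all genes) and against HET (0.285%), and DESeq2 called 0. An unadjusted p under 0.05 was found for 2 (14.5% of all genes) and 1 (13.3%). Lyve1 had the largest difference there, 8.87 ± 5.09 CPM in KO and 18.8 ± 8.89 in WT (-0.83 ± 0.30, adjusted p = 0.201), with 6 of 8 KO livers below all 6 WT livers. One of those 6 is the shallow replicate 8, in which no Lyve1 or Tek read was counted.

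No member was called in HET against WT livers. The count was 0 of 9 on chow (0% of all genes), HFD (0.00904%), Control (0.00862%) and Alios (0.00862%). With unadjusted p under 0.05 the counts were 0, 1, 1 and 0 (4.46%, 8.35%, 2.85% and 2.77% of all genes), and DESeq2 called 0 in each. The largest log2 difference was -0.39 ± 0.38, for Lyve1 on the Control diet. The single KO liver on the Control diet held 38.1 CPM of Kdr, 13.2 of Tek and 22.1 of Cdh5, beside 45.3 to 58.5, 13.2 to 24.4 and 24.6 to 29.6 in the 5 WT livers.

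In HET livers 4 of 9 members rose on HFD and none fell (14.2% of all genes were called, 6.97% higher). Stab2 ranged from 60.6 to 83.8 CPM on chow (n = 8, median 70.4) and from 87.3 to 116 on HFD (n = 11, median 99.0), so that all 11 HFD livers exceeded all chow livers (log2 fold change 0.51 ± 0.09, edgeR adjusted p = 0.00016). Flt4 was separated in the same way, from 19.0 to 27.0 CPM on chow (median 22.8) and from 27.6 to 42.1 on HFD (median 31.4; 0.49 ± 0.11, adjusted p = 0.00238). Groups that do not overlap were found for 1.22% of all genes.

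Lyve1 had the largest fold in HET livers, 6.71 ± 4.00 CPM on chow and 15.4 ± 7.07 on HFD, 2.24-fold higher (log2 fold change 1.16 ± 0.31, edgeR adjusted p = 0.00989). Its ranges overlapped, with 4 of 11 HFD livers above the highest chow liver at 15.2 CPM. Pecam1 rose least of the 4, from 21.7 ± 3.49 to 27.9 ± 3.38 CPM (0.35 ± 0.10, adjusted p = 0.0144). All 4 calls held without the HFD mouse labelled HET whose Pepd was at the KO level.

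Of 24 other endothelial genes, 2 rose in HET livers on HFD and none fell, Gpihbp1 (0.42), the capillary carrier of lipoprotein lipase, and Adgrl4 (0.43), beside 6.97% of all genes higher. Of 9 capillary, venous and arterial genes, 1 rose and none fell, Plvap (0.88), the diaphragm protein of fenestrae. The sinusoid genes Oit3 (0.34) and Mrc1 (0.35) rose and Bmp6 (-0.64), the iron-sensing ligand made by sinusoids, fell. These were 3 of 18 called, beside 14.2% of all genes. The ligand genes Vegfa (-0.55, edgeR adjusted p = 0.001) and Vegfd (-0.83, adjusted p = 0.0059) fell, and the co-receptor gene Nrp2 rose (0.59). Of 19 macrophage markers, 1 rose.

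In KO livers 3 of 9 members rose on HFD and none fell (10.7% of all genes were called, 4.51% higher). These included both receptors that were low in KO livers on chow. Kdr ranged from 36.8 to 49.0 CPM on HFD (n = 9, median 46.3), above all 5 chow KO livers (log2 fold change 0.59 ± 0.11, edgeR adjusted p = 0.00108), and lack of overlap was found for 1.72% of all genes. Tek rose from 9.04 ± 3.23 to 14.1 ± 2.61 CPM (0.67 ± 0.19, adjusted p = 0.0189), and Pecam1 from 17.6 ± 3.72 to 23.7 ± 2.15 (0.42 ± 0.13, adjusted p = 0.0298). Cdh5 was at 24.3 ± 3.29 CPM on HFD and 32.8 ± 9.66 on chow, and did not pass (-0.40 ± 0.15, adjusted p = 0.064). The Tek call was lost without chow KO replicate 2 (adjusted p = 0.0737) or 3 (0.10) and the Pecam1 call without chow KO replicate 1 (0.109) or 5 (0.0769), and Cdh5 passed without chow KO replicate 1 (0.0282) or 4 (0.0258).

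Of 24 other endothelial genes in the KO livers, 2 rose and none fell, and of 18 sinusoid genes 2 rose and none fell, beside 4.51% of all genes higher. Ptprb rose from 50.4 ± 1.44 to 76.2 ± 7.70 CPM (log2 fold change 0.59, edgeR adjusted p = 0.000772). Adgrl4 (0.85), Oit3 (0.51) and F8 (0.73, the coagulation factor VIII gene made by sinusoids) rose. On other lists, the lymphatic gene Reln (0.93) rose, and Ephb4, of the capillary, venous and arterial genes, fell (-0.41). Of 19 macrophage markers, 16 fell in this comparison, and their sums were 647 to 1166 CPM in KO livers on HFD. The comparison shares the chow KO livers with those above. The part of the macrophage difference in it was not tested.

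WT livers showed no called member on HFD (0 of 9, 1.87% of all genes), 4 had an unadjusted p under 0.05 (15.3%), and DESeq2 called 0. Lyve1 was at 11.7 ± 6.55 CPM on HFD and 6.03 ± 2.11 on chow (log2 fold change 1.07 ± 0.42, edgeR adjusted p = 0.193). Flt4 was above all 5 chow livers in 7 of 8 HFD livers, at 30.6 ± 6.78 against 23.8 ± 1.70 CPM (0.39 ± 0.14, adjusted p = 0.144). Whether the response to HFD differs between genotypes was tested for KO against WT only, by the difference of KO effects given above. Alios against Control called 0 members in WT (0% of all genes) and 0 in HET livers (0.19%), and DESeq2 called 0. An unadjusted p under 0.05 was found for 0 (8.42% of all genes) and 2 (13.1%). Lyve1 there had log2 differences of 0.47 ± 0.32 in WT and 0.76 ± 0.37 in HET (adjusted p = 0.72 and 0.38).

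In gonadal fat on chow, Lyve1 was higher in KO than in WT mice, the 1 of 9 members called (15% of all genes were, 8.85% higher). It stood at 27.9, 52.7, 55.5, 56.8 and 89.0 CPM in the 5 KO mice and at 25.6, 25.6, 29.4 and 31.5 in the 4 WT mice, so 4 of 5 KO mice exceeded all WT mice. The KO mean was 2.01-fold higher (log2 fold change 1.01 ± 0.35, edgeR adjusted p = 0.0452), and the call was lost in 9 of 19 alternative settings, with adjusted p up to 0.319. Leaving out any one of KO replicate 5 and the 4 WT mice ended it, and without KO replicate 5 the log2 fold change was 0.78 (edgeR adjusted p = 0.169). It was also lost without the libraries high in epididymis markers (0.133) or in hepatocyte markers (0.0521). Macrophage markers moved with it, 7 of 19 higher in KO and none lower, with sums of 3201 to 17182 CPM in KO and 1564 to 6529 in WT. Of the defining macrophage markers, Clec4f was at 0 in some libraries of both groups. Their part in the Lyve1 difference was not tested.

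On HFD the Lyve1 difference had the same size and missed the threshold. KO mice (n = 9) ranged from 30.1 to 114 CPM with a median of 43.5, WT mice (n = 8) from 12.6 to 44.3 with a median of 26.4, and HET mice (n = 11) from 14.5 to 38.0 with a median of 21.2. All 9 KO values exceeded the WT mean, and 7 of 9 exceeded every HET mouse. The log2 fold change was 0.98 ± 0.25 against WT (edgeR adjusted p = 0.199) and 1.11 ± 0.23 against HET (0.0721). DESeq2 called both (adjusted p = 0.049 and 0.00519), beside 0.158% and 0.11% of all genes. No other member passed either HFD comparison under edgeR (0 of 9, beside 0.0344% of all genes against WT and 0.0138% against HET). An unadjusted p under 0.05 was found for 2 members against WT (10.5% of all genes) and 1 against HET (7.77%).

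In these HFD comparisons the resident macrophage lectin gene Fcna was the 1 macrophage marker of 19 that rose, by 1.12 on the log2 scale against WT (edgeR adjusted p = 0.011) and 1.02 against HET (0.0178). The summed macrophage markers were 3049 to 13023 CPM in KO, 2265 to 8474 in WT and 4788 to 11428 in HET mice. The Lyve1 difference between KO and WT was not shown to differ between diets (-0.03 ± 0.43, adjusted p = 0.98).

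Against HET mice on chow, Stab1 was the member called in KO, and it was higher (1 of 9, 32.4% of all genes, 18% higher). KO mice stood at 254, 274, 308, 350 and 763 CPM, and the 8 HET mice ranged from 137 to 343 with a median of 242 (log2 fold change 0.70 ± 0.26, edgeR adjusted p = 0.0333). The value rested on 1 library: without KO replicate 5, at 763 CPM, the log2 fold change was 0.30 and the adjusted p 0.411. That library also had the highest summed macrophage markers of all gonadal libraries, 17182 CPM, and 14 of 19 macrophage markers rose in this comparison. Kdr (-0.46 ± 0.21, adjusted p = 0.0822) and Lyve1 (0.25 ± 0.29, adjusted p = 0.549) did not pass. Without KO replicate 2, Kdr (adjusted p = 0.0173) and Tek (0.0166) passed as lower in KO, and Kdr did without KO replicate 3 (0.0147).

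In gonadal fat of KO against WT mice on chow, 3 of 15 capillary, venous and arterial genes rose and 12 did not pass, beside 8.85% of all genes higher. The 3 were Selp (1.71), P-selectin, Sele (2.32), E-selectin, and Ackr1 (1.35), the venular chemokine receptor. The KO mice varied widely, with Ackr1 at 27.5 ± 19.8 CPM beside 10.7 ± 4.30 in WT. The macrophage and sinusoid genes Fcgr2b (1.81) and Mrc1 (0.90) rose as well. No member was called in HET against WT mice (0 of 9 on chow, 0% of all genes, and 0 on HFD, 0.00688%), with 1 member at an unadjusted p under 0.05 on each diet (4.29% and 4.88% of all genes). DESeq2 called 0.

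HFD shifted the scavenger receptors of gonadal fat upward and Lyve1 and Kdr downward in HET mice. There, 2 of 9 members rose and 2 fell (34.4% of all genes were called, 15.6% higher and 18.8% lower). Stab2 ranged from 0.558 to 8.04 CPM on chow (n = 8, median 2.85) and from 6.82 to 19.5 on HFD (n = 11, median 14.3), with 10 of 11 HFD mice above all chow mice (log2 fold change 1.99 ± 0.36, edgeR adjusted p = 8.1e-05). Stab1 rose from 241 ± 60.9 to 390 ± 85.2 CPM (0.70 ± 0.22, adjusted p = 0.0112). Lyve1 fell from 47.6 ± 18.4 to 24.6 ± 7.32 CPM (-0.95 ± 0.24, adjusted p = 0.00211), and all 11 HFD mice were below the chow mean. Kdr fell from 201 ± 32.7 to 148 ± 26.0 CPM (-0.44 ± 0.16, adjusted p = 0.0346). Without the gonadal libraries high in hepatocyte markers, Stab1 (adjusted p = 0.0695) and Kdr (0.156) no longer passed. Kdr was also lost without the HFD mouse of KO-like Pepd (0.0595) and without the filter on low counts (0.0608).

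Of 25 other endothelial genes in the same mice, 9 fell and none rose, with Tspan7 (-0.95), Sox7 (-0.78) and Emcn (-0.45) leading. Of 15 capillary, venous and arterial genes 4 fell, among them Rgcc (-0.92) and Dll4 (-0.74). Of all genes 18.8% were lower. The medians of these lists were -0.37 and -0.26. Vegfa (-0.79) and Vegfb (-0.95) fell, and Nrp2 rose (0.84). Of 19 macrophage markers 12 rose and 2 fell, with sums of 1348 to 4448 CPM on chow and 4788 to 11428 on HFD, and Stab1 is itself made by macrophages. The part of macrophage RNA in the Stab1 and Stab2 values was not tested.

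WT and KO mice gave no called member on HFD against chow (0 of 9 each, beside 4.57% and 35.5% of all genes). At an unadjusted p under 0.05 there were 2 and 1 members (28.1% and 44.7% of all genes). DESeq2 called 2 in WT, Stab2 (adjusted p = 0.0213) and Clec4g (0.0275), beside 9.13% of all genes, and 0 in KO. Stab2 was at 14.5 ± 10.9 CPM on HFD and 5.31 ± 2.66 on chow in WT (log2 fold change 1.44 ± 0.47, edgeR adjusted p = 0.0578), and at 10.3 ± 3.29 and 5.44 ± 1.84 in KO mice (0.92 ± 0.42, adjusted p = 0.0792). Lyve1 in KO mice was at 53.2 ± 25.0 CPM on HFD and 56.4 ± 21.7 on chow (-0.09 ± 0.28, adjusted p = 0.839). No member passed the test of a KO effect that differs between diets (0 of 9, 6.33% of all genes), DESeq2 called 0, and 0 members had an unadjusted p under 0.05 (23.5% of all genes did).

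**Figure D3:**
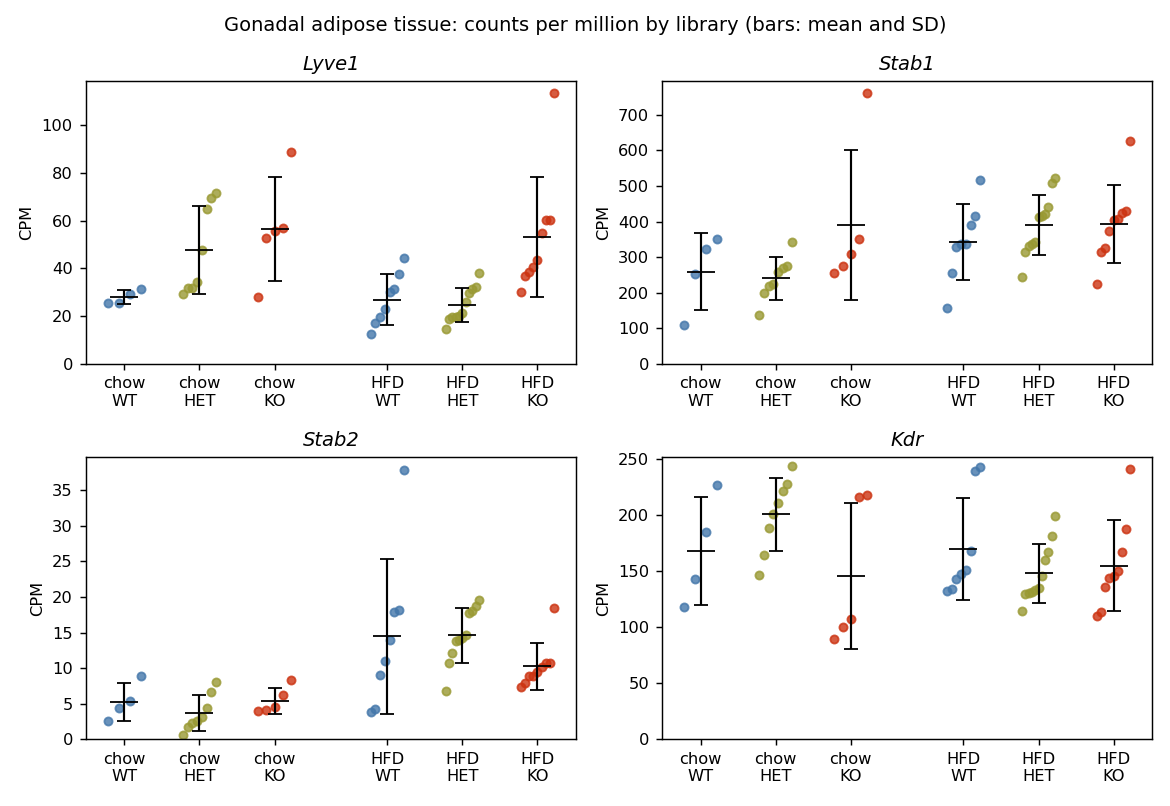
CPM of Lyve1, Stab1, Stab2 and Kdr in each gonadal library on chow and HFD, by genotype, with the mean and SD. Lyve1 lies at 25.6 to 31.5 CPM in chow WT mice and above that in 4 of 5 chow KO mice.

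**Figure D4:**
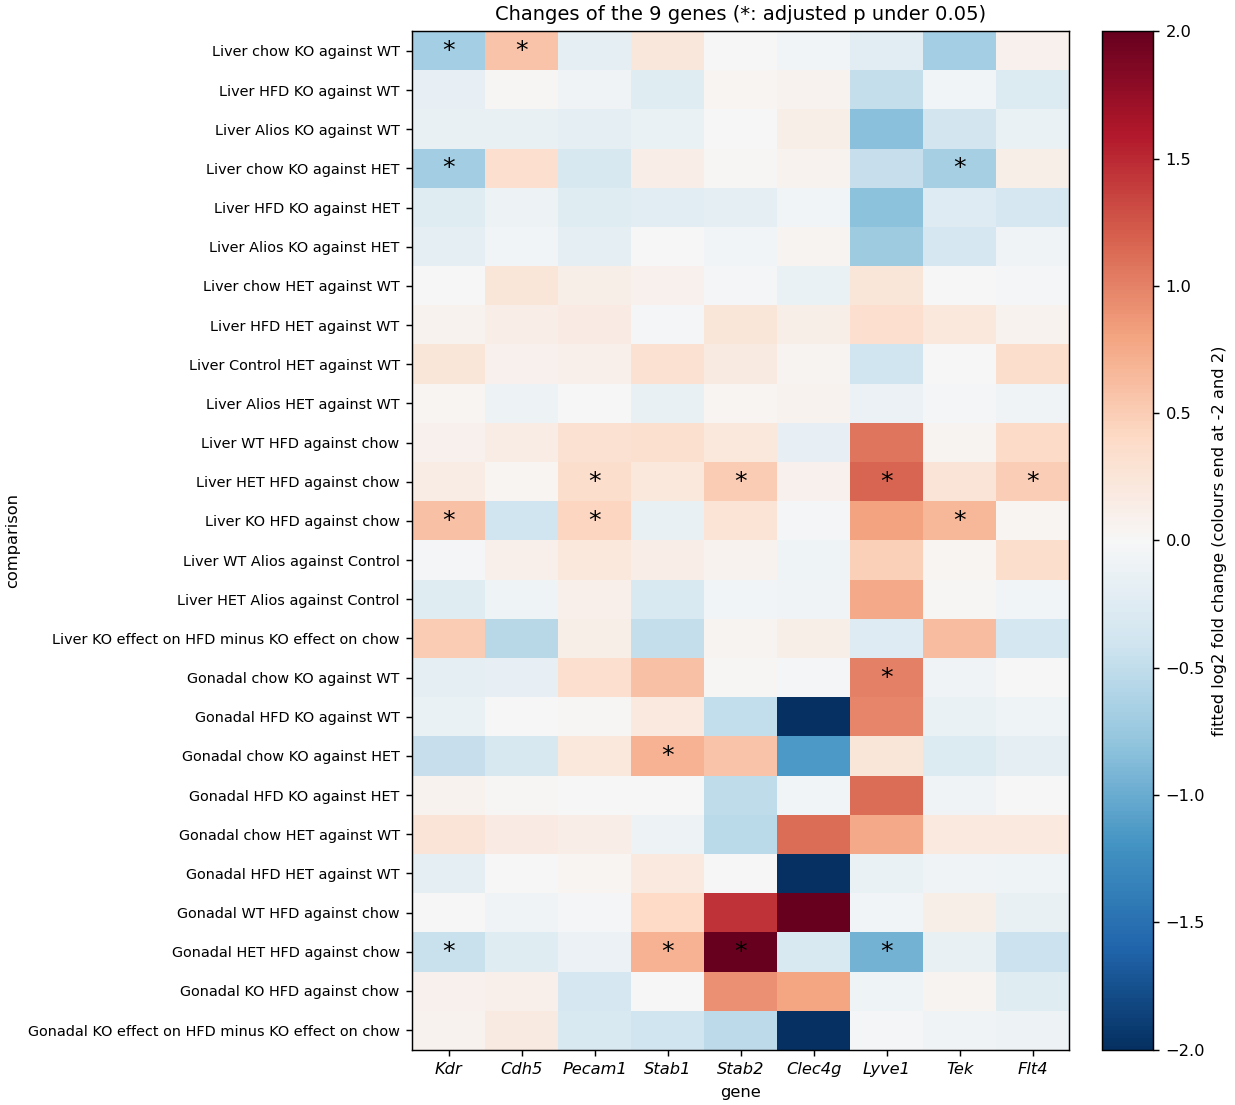
Log2 fold changes of the 9 genes (columns) in each comparison within a tissue (rows), coloured from lower (blue) to higher (red), with an asterisk where edgeR's adjusted p was under 0.05. Kdr and Tek are lower in chow KO livers, Tek with an asterisk against HET only. Both are higher in KO livers on HFD against chow, and HET mice against WT carry no asterisk.

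Seen by member over the 15 liver comparisons, Kdr was called 3 times, Tek and Pecam1 2 times each, Cdh5, Stab2, Lyve1 and Flt4 1 time each, and Stab1 and Clec4g in none. Clec4g, the most abundant member per length in liver, was also the steadiest there, with log2 fold changes between -0.16 and 0.12. In the 9 gonadal comparisons Lyve1 and Stab1 were called 2 times each and Kdr and Stab2 1 time each. Cdh5, Pecam1, Tek, Flt4 and Clec4g were called in none. Many of these comparisons share groups, so the counts are not independent.

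Kdr, Cdh5, Pecam1, Tek and Flt4 varied together in gonadal fat. Pearson correlations of log2 CPM, after each group's mean was subtracted, are given as descriptions. The points are single libraries, and all genes of a library share its depth, scaling and tissue makeup. Over 45 gonadal libraries, r was 0.91 for Kdr and Tek, 0.89 for Cdh5 and Pecam1 and 0.88 for Cdh5 and Tek, and among Kdr, Cdh5, Pecam1, Tek and Flt4 it was never under 0.61. Stab1 and Stab2 stood apart from these 5, at 0.56 with each other, and with the mean of the macrophage markers at 0.81 and 0.69. Kdr had r = -0.51 with that mean, and Lyve1 0.11. Over 73 livers the highest values between members were 0.57 for Stab2 and Cdh5 and 0.53 for Kdr and Tek, and Cdh5 had r = 0.52 with the macrophage mean where Kdr had 0.00. Other pairs were higher in liver, such as Kdr and Stab2 at 0.41 beside -0.40 in gonadal fat.

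The genes most like each member were found by the same measure over all genes. Ptprb was among the 3 closest to Kdr and to Tek in both tissues, with r = 0.93 and 0.90 over gonadal libraries and 0.71 and 0.67 over livers. Kif1b (0.73) and Dennd4a (0.73) came before it for Kdr in liver. Pecam1, Stab1 and Flt4 in liver were closest to Myof (0.68), Ptov1 (0.69) and Gusb (0.62). None of the 3 genes closest to each of these members there was a member or on the endothelial lists used here. In gonadal fat Cdh5 was closest to Uaca (0.96), Mmrn2 (0.95) and Tie1 (0.95), and Pecam1 to Esam (0.93), Tie1 (0.92) and Erg (0.92), and all of these but Uaca are well-known endothelial genes. Lyve1 in gonadal fat was closest to Cbr2 (0.73), Cd163 (0.71) and F13a1 (0.69), which resident macrophages make, and in liver to Abhd2 (0.74), Vcam1 (0.72) and Ccdc80 (0.71). Clec4g in liver was closest to Dnase1l3 (0.69), another sinusoid gene. In gonadal fat it was closest to Mettl7b (0.94), Serpina1c (0.93) and Tmprss6 (0.92), genes of hepatocytes, and its highest gonadal values were in libraries with hepatocyte RNA.

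**Figure D5:**
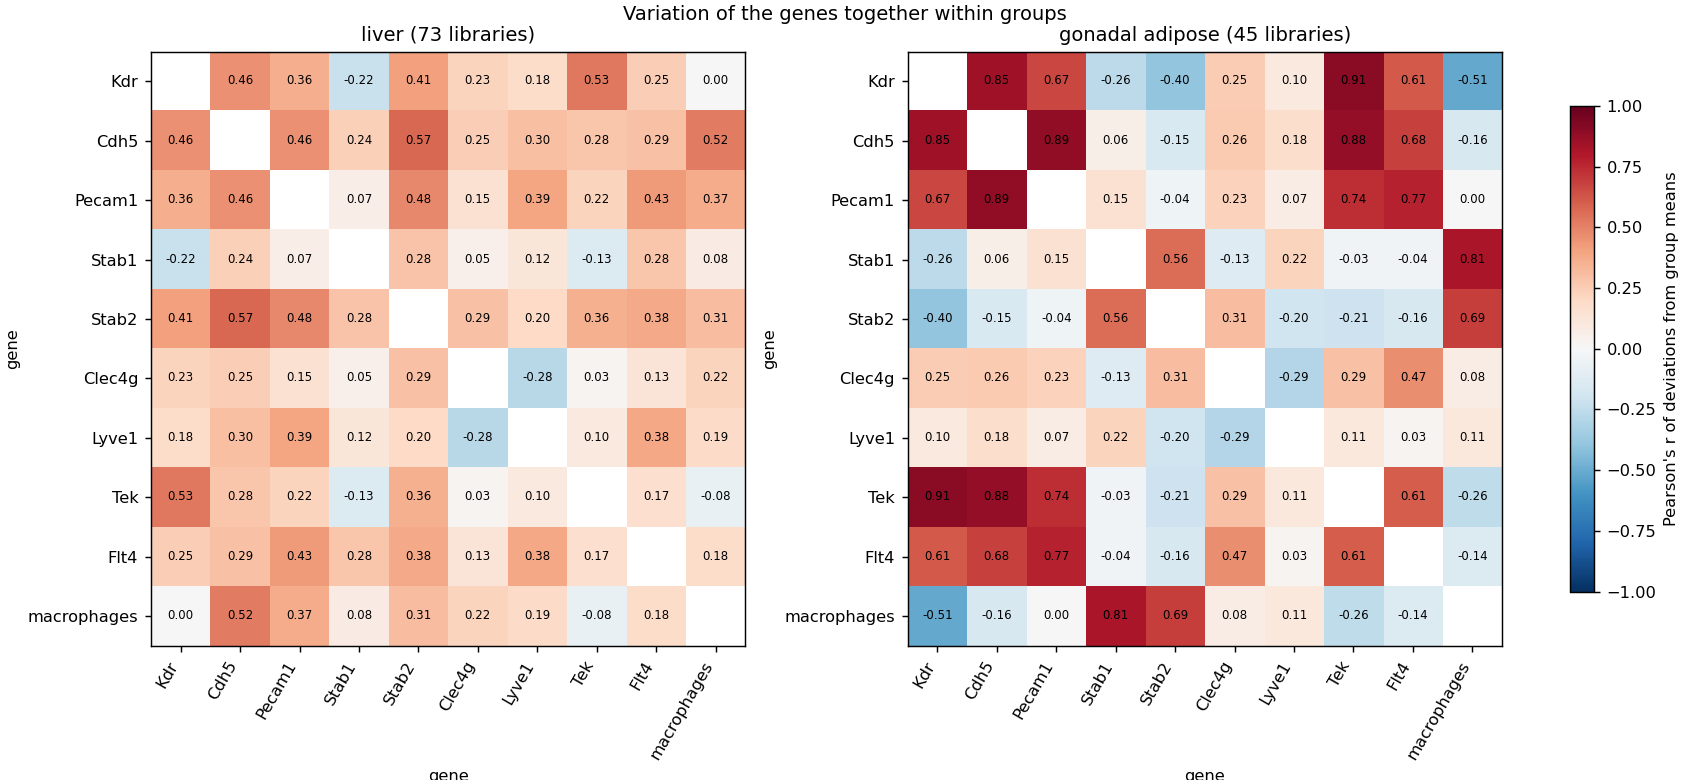
Pearson correlations of log2 CPM (deviations from group means) between the 9 genes and the mean of the macrophage markers over 73 liver (left) and 45 gonadal (right) libraries, coloured from negative (blue) to positive (red). The gonadal panel shows a block of Kdr, Cdh5, Pecam1, Tek and Flt4 with r from 0.61 to 0.91.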

How the data were processed

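Liver and gonadal adipose RNA of single mice was sequenced as stranded mRNA libraries, per the labels' protocols. The authors deposited raw read counts per gene, 1 table per tissue. Per the submitters' processing notes, the tools and build were STAR 2.5.1b, featureCounts 1.5 and GRCm38.p5. The counting's strand option is not given in the sources used here. Of 121 labelled samples 120 had a column, and 1 column matching no label was not used. In 392 pairs of libraries within a group, leaving out Alios KO liver replicate 8, the mean squared deviation was at least 3.36 times the sampling variance.

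Groups were taken from the labels. Counts were fitted with edgeR 4.0.16 (R 4.3.3; quasi-likelihood test, TMM scaling) in 3 fits: liver on chow and HFD (11064 genes), liver on Control and Alios diets (11595) and gonadal fat (14536). A further fit of 88 libraries from 44 mice compared tissues (14679 genes). The filter asked for 10 counts in enough libraries and 15 in all. Benjamini-Hochberg adjusted p-values under 0.05 over all genes were called, and a standard error is the log2 fold change divided by the root of F. Depth limits the precision of low genes, and intervals cover spread between mice. CPM used TMM-scaled library sizes within a tissue, and RPKM divided them by exon length. The script was tested on simulated data.

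Members and gene lists were chosen with earlier results of these data known. All 9 members are named with values. Of other lists, counts called and at most 3 called genes with the smallest adjusted p per comparison are named. The 3 genes most like each member were taken by Pearson's r over libraries in groups of 2 or more, without Alios KO liver replicate 8. Alternatives were DESeq2 1.42.0, other scalings, filters and sample sets, and the replicate number as a block. Outside the Control and Alios fit, the run of mouse numbers (low or high) was also tried as a covariate. Libraries were left out in turn only in groups of 4 or 5. Fits without libraries high in markers of another tissue, and the tissue fit without the mouse of gonadal HFD WT replicate 6, were added after seeing the data.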

Additional observations from a re-analysis of the deposited data

Results flagged for a closer look

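Of 135 combinations of a member and a group of 4 to 10 libraries, 17 had a library far from the rest by Dixon's test at the 95% level, where chance flags about 1 in 20. They were 7 in liver and 10 in gonadal fat, and values below are CPM.

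The gonadal libraries of KO mice with outlying scavenger and hyaluronan receptors were chow replicate 5 (Stab1 763) and HFD replicate 5 (Stab1 628, Stab2 18.5, Lyve1 114), each highest in its group. Their summed macrophage markers, 17182 and 13023 CPM, were also the highest of their groups. Gonadal HFD WT replicate 6 was highest for Clec4g (28.6) and Stab2 (37.8), with 52235 CPM of summed hepatocyte markers. HFD KO replicate 3 was highest for Clec4g (6.38) and Flt4 (52.0), with 6894 CPM of hepatocyte markers, and chow HET replicate 7 for Clec4g (4.48), with 4018. Chow HET replicate 2 was lowest for Cdh5 (249), with 14315 CPM of summed epididymis markers. The part of these other tissues in the values was not tested.

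In liver, Alios KO replicate 8, the library of 42692 counts, was lowest for Stab1 (21.3), Stab2 (42.5) and Tek (0). At that depth 1 read is worth 21.3 CPM. Pecam1 was highest in chow WT replicate 3 (28.6), Stab1 in Control WT replicate 5 (60.3), Lyve1 in Alios WT replicate 1 (36.0) and Flt4 in HFD WT replicate 5 (45.8).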

How the results depend on the processing

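Over 28 comparisons, 3350 of 3420 values of a single member under an alternative setting stayed on the same side of the threshold. Of the rest, 46 lost a call and 24 gained one, and no called value changed sign. Most of the 3420 belong to members not called in the main fit, so they say little about the calls. On chow, KO against WT lost Cdh5 in liver in 14 of 20 settings, Kdr in liver in 1 of 20 and Lyve1 in gonadal fat in 9 of 19. KO against HET lost Tek in 3 of 15, Stab1 in gonadal fat in 5 of 15 and Kdr in 0 of 15. Of 384 counts of called members, 340 stayed within 1.5 times the reported count. Libraries were left out in turn only in groups of 4 or 5, so the ranges below with each library left out cover those groups alone. The larger groups, among them HET mice on chow and all HFD groups, had no such check.

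In KO against WT livers on chow (2 called), 1 member was called without the filter on low counts, with a mean of at least 1 CPM, with DESeq2's size factors in edgeR, without the HFD mouse of KO-like Pepd and without the livers high in muscle markers, 0 when only the groups compared were fitted, and 1 to 3 with each library left out. In KO against HET livers on chow (2), 1 was called with only the groups compared and 1 to 2 with each library left out. In gonadal fat on chow, KO against WT (1) gave 0 without the filter (2089 of 19406 genes called). It gave 0 with only the groups compared, where no gene passed (0 of 12995). It also gave 0 without the libraries high in hepatocyte (1840 of 14350) or in epididymis markers (1530 of 14353), and 0 to 1 with each library left out. KO against HET (1) gave 0 without the filter (4593 of 19406 genes) and with only the groups compared (1515 of 12915). It gave 0 without the hepatocyte-high libraries (3654 of 14350), and 0 to 3 with each library left out. On HFD, DESeq2 called 1 member in gonadal KO against WT (0 reported), beside 23 of 14536 genes. Against HET (0 reported) it called 1, beside 16 of 14536, and fitting only the groups compared also called 1 (21 of 12786). Gonadal HFD against chow gave 2 in WT by DESeq2 (0 reported, 1327 of 14536 genes) and 0 to 1 with each library left out. In HET (4) it gave 2 without the hepatocyte-high libraries (3512 of 14350 genes). In KO (0) it gave 1 with only the groups compared (Stab2, edgeR adjusted p = 0.0121, 3862 of 13014 genes). Without the epididymis-high libraries it gave 1 (Pecam1, 0.0167, 4666 of 14353 genes), and 0 to 1 with each library left out. Leaving out each library gave 0 to 1 for the difference of KO effects in liver (0), 2 to 4 for KO livers on HFD against chow (3) and 7 to 8 for the tissues on chow (8). The order of the 9 genes by level held in 2 of 18 groups with the longest transcript's length. The cause of these changes was not tested.

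Replicate numbers recur across groups. Samples with the same number did not deviate together in every pair of any comparison (r from -0.67 to 0.88), but some pairs did. In gonadal fat of HET against WT mice, r was over 0.1 in 2 of 4 pairs on chow and 4 of 8 on HFD. Whether such pairs share more than a number was not tested. With the replicate number as a block, KO against WT livers on chow gave 1 member (Cdh5 at an adjusted p of 0.063), KO against HET gonadal fat on chow 0 (Stab1 0.0762), HET livers on HFD 3 (Pecam1 0.0596) and KO livers on HFD 2 (Tek 0.0509 and Pecam1 0.0761 lost, Cdh5 0.042 gained). No other count changed. The tissue fit without the mouse as a block kept 8 and 8 called members.

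Low counts limit Clec4g and Stab2 in gonadal fat, with 0 to 164 and 3 to 217 reads per library, and every member in Alios KO liver replicate 8. They also limit Lyve1 and Tek in liver. On chow, Lyve1 had 3 to 16 reads in KO and 10 to 24 in WT livers, and Tek 12 to 44 in KO livers. Values come from bulk tissue, so differences in cell makeup enter each of them. Chow groups held 4 to 8 mice, which limits the precision of their differences.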

Other observations

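In gonadal fat, 2 of 15 capillary, venous and arterial genes had a KO effect that differed between diets, beside 6.33% of all genes. The difference of KO effects (HFD minus chow) was -1.63 on the log2 scale for Selp (edgeR adjusted p = 0.0154) and -1.43 for Ackr1 (adjusted p = 0.0343). The receptor gene Fcgr2b had a difference of -1.89 (adjusted p = 0.00303). In KO mice, Selp (-1.69), Sele (-2.17) and Ackr1 (-1.20) fell on HFD against chow.

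In WT livers HFD raised Plvap (log2 fold change 0.88, edgeR adjusted p = 0.0436), although no member was called there. Of 11 stellate cell and pericyte genes, 3 rose in the same livers: Colec11 (0.61), Rgs5 (0.71) and Pdgfrb (0.72).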
